A study of Mus musculus with 2 samples.

Results

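The 38 genes described here encode enzymes and carriers of the tricarboxylic acid (TCA) cycle and of fatty acid oxidation. They were taken by gene symbol from the large gene table of each library, where they are 38 of 55536 annotated genes (GENCODE M21, mouse mm10). The rule goes by symbol alone and uses no measured value. Of the 38, 22 belong to pyruvate entry, the cycle and citrate export, and 16 belong to fatty acid oxidation. The RNA was polyadenylated RNA from inflammation-experienced regulatory T cells, taken as primary cells from 7-week-old males and traced by the labels to activated regulatory T cells. No genotype, treatment or untreated control is given for these libraries, and neither the means of inflammation nor the number of mice is stated. The labels give 1 biological replicate sequenced as 2 technical libraries, called library 1 and library 2. The labels name 1 biosample but do not say whether both libraries came from the same RNA or cell preparation. Differences between them may therefore include differences in preparation or in cell content, and are not a spread between animals.

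The TCA cycle runs in the mitochondrial matrix. It oxidises acetyl-CoA to carbon dioxide and passes electrons to the respiratory chain as NADH and reduced flavin. Acetyl-CoA comes from pyruvate through the pyruvate dehydrogenase complex, or from fatty acids, which enter mitochondria as carnitine esters and are shortened by repeated rounds of dehydrogenation, hydration, dehydrogenation and thiolysis. Regulatory T cells restrain immune responses, depend on the transcription factor Foxp3 and are known to rely on mitochondrial oxidation.

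Library 1 held 26593267 expected counts over annotated genes and library 2 held 22036331. All 6 T cell markers and all 6 regulatory T cell markers were detected, with Foxp3 at 87.3 TPM in library 1 and 87.4 TPM in library 2. The regulatory T cell markers summed to 1265 TPM in library 1 and 1101 TPM in library 2. Izumo1r differed most among them, at 481 TPM in library 1 and 342 TPM in library 2. Tnfrsf18 went the other way, at 344 TPM in library 1 and 369 TPM in library 2. In the small gene table, a separate count described below, Izumo1r had 1902 counts in library 1 and 1680 in library 2. Relative to library totals its log2 ratio there was -0.003, against 0.49 by expected counts, so its difference depends on the table. TPM is a transcript level scaled by length and by library, so it allows an order between genes. Summed TPM of 8 erythroid markers was 8533 in library 1 and 94.7 in library 2, with all 8 higher in library 1 and Aqp1 among those at 0 in library 2. In the small gene table all 8 were also higher in library 1, but by less. For the most abundant, Hba-a2 and Hbb-bs, the log2 ratios there were 2.28 and 2.61, against 6.69 and 6.17 by expected counts. For 7 macrophage markers the sums were 32.9 TPM in library 1 and 71.0 TPM in library 2, with 6 of the 7 higher in library 2 and C1qc at 0 in library 1. The exception, Lyz2, had 23.8 TPM in library 1 and 3.72 TPM in library 2, and made up most of the library 1 sum. The 4 NK cell markers summed to 190 TPM in library 1 and 309 TPM in library 2. Most of both sums came from Nkg7, at 153 TPM in library 1 and 233 TPM in library 2. Klrk1 had 32.1 TPM in library 1 and 72.2 TPM in library 2. Klrb1c had 4.26 TPM in library 1 and 3.75 TPM in library 2. Ncr1 was at 0 in library 1 and had only 5 counts in library 2. The 5 B cell markers summed to 154 TPM in library 1 and 112 TPM in library 2. The 8 cell cycle genes summed to 325 TPM in library 1 and 265 TPM in library 2. Of these, Ccnb1 (26.3 TPM in library 1 and 2.00 TPM in library 2), Birc5, Mki67 and Cdk1 were at least 1.5-fold higher in library 1. Top2a differed in the opposite direction and was 1.19-fold lower in library 1 by its share of counts. Pcna, the most abundant, had 144 TPM in library 1 and 147 TPM in library 2. The 2 CD8 markers summed to 27.0 TPM in library 1 and 13.5 TPM in library 2, and 4 dendritic cell markers to 7.56 TPM in library 1 and 5.88 TPM in library 2. Of 5 adipocyte or hepatocyte markers, from tissues that burn or handle much fat, 0 were detected, and their sums were 0.27 TPM in library 1 and 2.28 TPM in library 2, with Adipoq at 0 in both. In bulk RNA, fewer cells of a type and less RNA per cell cannot be told apart, and the part of these other markers in the differences below was not tested.

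All 38 genes were detected (1 TPM or more in each library), among 13718 detected genes. Their median level was 73.5 TPM in library 1 and 71.7 TPM in library 2, against medians over all detected genes of 21.1 TPM in library 1 and 21.4 TPM in library 2. By mean level over both libraries, 35 of the 38 lay above the median of detected genes, which is 21.3 TPM. There were 14 genes at 100 TPM or more, 12 between 50 and 100, 9 between 20 and 50, and 3 below 20. Together the 38 genes took 0.408% of the counts of library 1 (95% Wilson interval 0.405% to 0.410%) and 0.393% of those of library 2 (0.390% to 0.395%). The most abundant gene, Mdh2, and the least abundant, Pcx, both act on oxaloacetate.

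**Figure D1:**
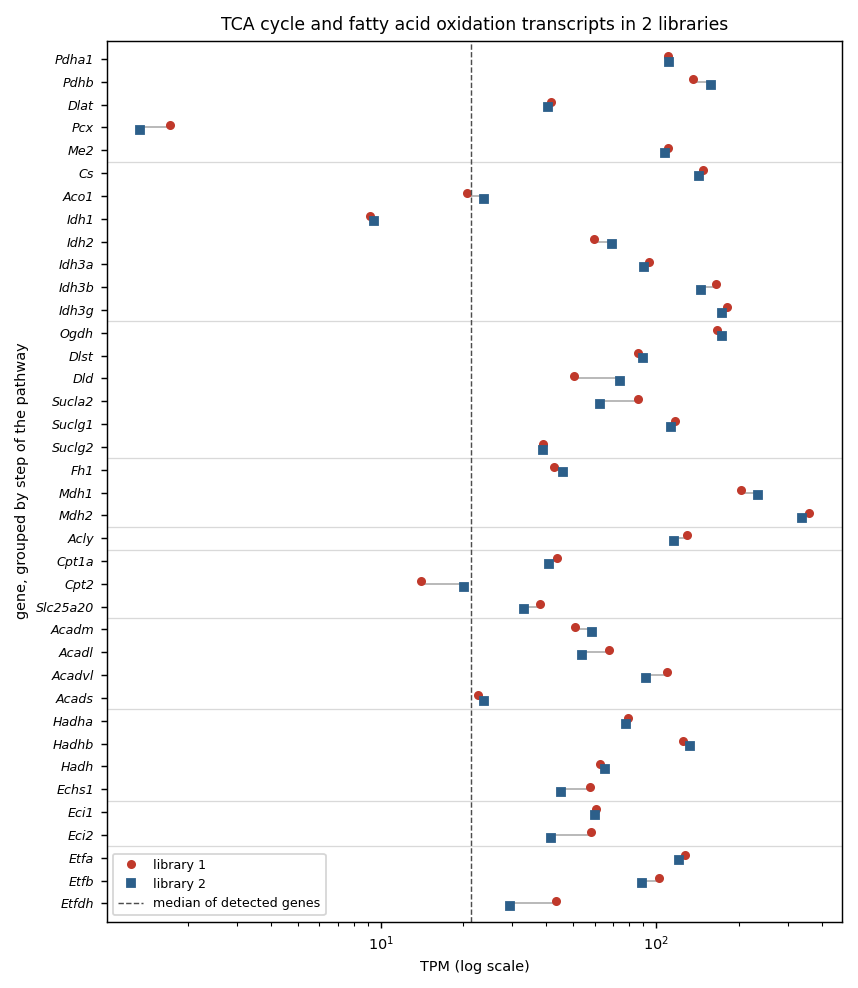
Level of each of the 38 genes in TPM (log axis) in library 1 (circles) and library 2 (squares), grouped by step from pyruvate entry at the top to electron transfer at the bottom. The dashed line is the median of detected genes (21.3 TPM); Pcx, Idh1 and Cpt2 lie left of it in both libraries, and Mdh2 lies farthest right.

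Pyruvate enters through the pyruvate dehydrogenase complex, whose components were unequal in level. Pdha1 (chrX:160122209-160138413), the alpha subunit of its E1 component, had 110 TPM in library 1 and 111 TPM in library 2. Pdhb (chr14:8165996-8173025), the E1 beta subunit, had 136 TPM in library 1 and 159 TPM in library 2. Dlat, the E2 acetyltransferase core, had 41.4 TPM in library 1 and 40.7 TPM in library 2, below both E1 subunits in each library. Pdha1 stood at 0.811 of Pdhb in library 1 and 0.699 in library 2. The malic enzyme Me2, which makes pyruvate from malate in mitochondria, had 111 TPM in library 1 and 108 TPM in library 2. Pyruvate carboxylase, Pcx (chr19:4510472-4621752), which makes oxaloacetate from pyruvate to refill the cycle, had only 1.72 TPM in library 1 and 1.34 TPM in library 2, from 104 counts in library 1 and 73 in library 2. It was the lowest of the 38 genes in both libraries.

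Citrate synthase, Cs, which condenses acetyl-CoA with oxaloacetate, had 149 TPM in library 1 and 144 TPM in library 2. The cytosolic aconitase Aco1, which also binds iron-responsive RNA elements as an iron sensor, had 20.5 TPM in library 1 and 23.6 TPM in library 2. Mitochondrial isocitrate dehydrogenase that uses NAD is built from 3 kinds of subunit. Its subunit genes Idh3g (181 TPM in library 1 and 173 TPM in library 2) and Idh3b (165 TPM in library 1 and 145 TPM in library 2) lay above Idh3a, the catalytic subunit, at 94.1 TPM in library 1 and 90.4 TPM in library 2. Idh3a was 0.520 of Idh3g in library 1 and 0.521 in library 2, the pair ratio that moved least between libraries of the 9 examined. These are ratios of whole-gene levels. Transcripts annotated as protein-coding held 22.6% of Idh3a TPM in library 1 and 43.0% in library 2. For Idh3g they held 60.0% in library 1 and 50.8% in library 2, so a ratio of coding transcripts need not be as steady. Among the isocitrate dehydrogenases that use NADP, the mitochondrial Idh2 had 59.6 TPM in library 1 and 69.2 TPM in library 2, while the cytosolic Idh1 had 9.15 TPM in library 1 and 9.49 TPM in library 2. Idh1 was 0.154 of Idh2 in library 1 and 0.137 in library 2.

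Ogdh, the E1 component of the 2-oxoglutarate dehydrogenase complex, had 167 TPM in library 1 and 174 TPM in library 2. Dlst, its E2 core, had 85.9 TPM in library 1 and 89.6 TPM in library 2. Dld, the E3 component that this complex shares with pyruvate dehydrogenase, had 50.5 TPM in library 1 and 74.2 TPM in library 2, one of the wider gaps among the 38 genes. Succinyl-CoA ligase pairs the alpha subunit Suclg1 with a beta subunit that makes either ATP (Sucla2) or GTP (Suclg2). Suclg1 had 117 TPM in library 1 and 113 TPM in library 2. Sucla2 had 85.9 TPM in library 1 and 62.3 TPM in library 2, and Suclg2 had 38.8 TPM in library 1 and 38.7 TPM in library 2, so the ATP-forming subunit was the higher one in both libraries. The ratio of Suclg2 to Sucla2 was 0.452 in library 1 and 0.621 in library 2.

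Fumarase, Fh1, had 42.5 TPM in library 1 and 46.1 TPM in library 2. The malate dehydrogenases, which also carry reducing equivalents between cytosol and mitochondria, held the first and second ranks among the 38 genes. The mitochondrial Mdh2 (chr5:135778480-135790398) had 359 TPM in library 1 and 340 TPM in library 2, and the cytosolic Mdh1 had 203 TPM in library 1 and 234 TPM in library 2. Mdh1 was 0.567 of Mdh2 in library 1 and 0.687 in library 2. Acly, the cytosolic enzyme that splits exported citrate into acetyl-CoA and oxaloacetate, had 130 TPM in library 1 and 116 TPM in library 2. In the order of mean whole-gene levels, Ogdh and Idh3g could not be separated, since the ranges of their 2 libraries overlapped. By the same measure Mdh2 and Mdh1 did not overlap with each other or with any other of the 38 genes. Transcripts annotated as protein-coding held 38.5% of Mdh2 TPM in library 1 and 42.9% in library 2. For Mdh1 they held 66.5% in library 1 and 66.3% in library 2, so coding transcripts need not keep this order or ratio.

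Fatty acid oxidation genes stood lower, with a median of 57.5 TPM over 16 genes against 101 TPM over the 22 pyruvate and cycle genes, with overlapping ranges. Cpt1a, which makes long-chain acylcarnitines at the outer mitochondrial membrane, had 43.8 TPM in library 1 and 40.8 TPM in library 2. Slc25a20, the carrier that brings them across the inner membrane, had 38.03 TPM in library 1 and 33.2 TPM in library 2. Cpt2, which turns them back into acyl-CoA inside, had 14.0 TPM in library 1 and 20.01 TPM in library 2 and was the lowest of the 16 in both. All 3 carnitine shuttle genes thus lay under the median of the fatty acid oxidation genes.

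The acyl-CoA dehydrogenases open each round of oxidation and differ in the chain length they prefer. The very-long-chain enzyme Acadvl had 110 TPM in library 1 and 92.0 TPM in library 2, and the long-chain enzyme Acadl had 67.8 TPM in library 1 and 53.8 TPM in library 2. The medium-chain enzyme Acadm had 50.8 TPM in library 1 and 58.6 TPM in library 2, and the short-chain enzyme Acads had 22.6 TPM in library 1 and 23.8 TPM in library 2. Acadvl was the highest and Acads the lowest of the 4 in both libraries, while Acadl and Acadm lay in between with overlapping ranges.

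Hadha and Hadhb encode the alpha and beta subunits of the mitochondrial trifunctional protein, which carries out the later steps on long chains. Hadha had 79.3 TPM in library 1 and 77.5 TPM in library 2, and Hadhb had 125 TPM in library 1 and 133 TPM in library 2. The ratio of these whole-gene levels was 0.632 in library 1 and 0.582 in library 2. Transcripts annotated as protein-coding held only 7.15% of Hadha TPM in library 1 and 12.02% in library 2. For Hadhb they held 91.3% in library 1 and 95.6% in library 2, so a ratio of coding transcripts would be far lower. Hadh, the 3-hydroxyacyl-CoA dehydrogenase for shorter chains, had 62.5 TPM in library 1 and 65.0 TPM in library 2. Echs1, the short-chain enoyl-CoA hydratase, had 57.4 TPM in library 1 and 45.2 TPM in library 2. The enoyl-CoA isomerases, needed for unsaturated chains, were Eci1, at 60.4 TPM in library 1 and 60.2 TPM in library 2, and Eci2, at 58.0 TPM in library 1 and 41.5 TPM in library 2. Electrons from the dehydrogenases pass to electron transfer flavoprotein, whose subunits Etfa (128 TPM in library 1 and 121 TPM in library 2) and Etfb (102 TPM in library 1 and 88.9 TPM in library 2) were higher than Etfdh, the oxidoreductase that hands the electrons to ubiquinone, at 43.3 TPM in library 1 and 29.5 TPM in library 2. Etfa was 1.25 times Etfb in library 1 and 1.37 times in library 2.

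The 2 libraries were compared gene by gene from expected counts, as the ratio (library 1 over library 2) of each gene's share of its library total. This compares 2 libraries, not conditions, and p-values measure counting error alone. A 2-sided exact binomial test with Benjamini-Hochberg adjustment over 24257 genes with at least 10 counts placed 23 of the 38 genes beyond counting error at an adjusted p under 0.05, of which 15 were higher in library 1 and 8 higher in library 2. Over all genes tested the same call took 70.2% (23.9% higher in library 1 and 46.4% higher in library 2), and over detected genes 64.9% (31.7% higher in library 1 and 33.1% higher in library 2), so the share among the 38 was close to the background. Scaling moved this split: with TMM factors the 38 genes gave 20 calls higher in library 1 and 4 higher in library 2, and with DESeq2 size factors 21 higher in library 1 and 4 higher in library 2. Detected genes shifted the same way, to 41.3% higher in library 1 and 24.6% higher in library 2 with TMM factors, and to 42.4% higher in library 1 and 23.9% higher in library 2 with DESeq2 size factors. Only 2 of the 38 genes were at least 1.5-fold apart, both higher in library 1. Beside them stood 53.7% of all genes tested (14.5% higher in library 1 and 39.2% higher in library 2) and 25.1% of detected genes (11.2% higher in library 1 and 14% higher in library 2). Among genes with a mean of at least 20 TPM, a comparison added after the data had been seen, the background was 8.45%, beside 2 of 35. The median log2 ratio of the 38 genes was 0.06, against -0.01 over detected genes, and the median size of their log2 ratios was 0.13, against 0.29 over detected genes and 0.19 over genes with a mean of at least 20 TPM. Log2 ratios of 28 of the 38 genes were smaller than 0.2 in size.

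**Figure D2:**
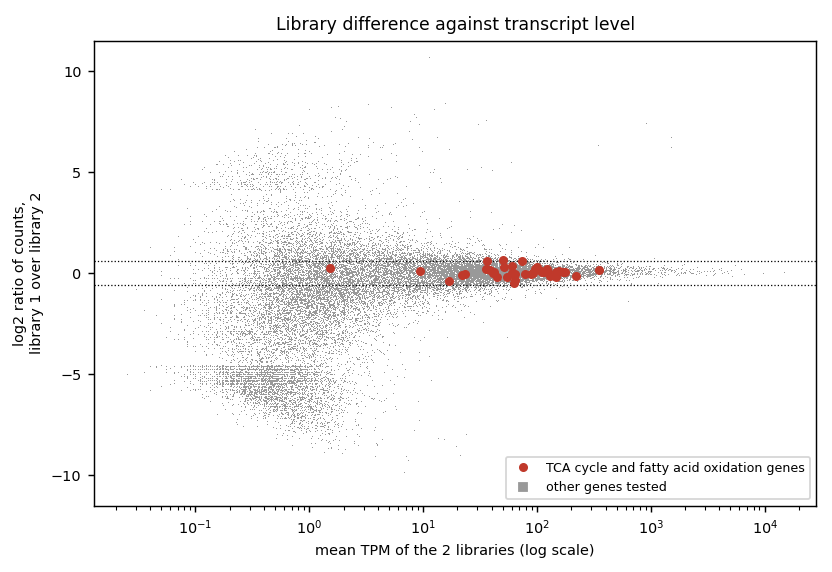
Log2 ratio of counts, library 1 over library 2, against the mean TPM of both libraries (log axis) for the 38 genes (large points) and the other genes tested (small points). Dotted lines mark 1.5-fold; the 38 genes run from -0.51 to 0.66, and ratios of other genes spread widely at low levels.

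Eci2 had the largest ratio. It had 1167 counts in library 1 and 613 in library 2, a 1.58-fold higher level in library 1 (log2 0.66, 95% counting interval 0.52 to 0.80; exact binomial test, adjusted p = 1.60e-19). Sucla2 had 2656 counts in library 1 and 1458 in library 2, 1.51-fold higher in library 1 (log2 0.59, 0.50 to 0.69; exact binomial test, adjusted p = 3.38e-36). Etfdh, with 1597 counts in library 1 and 883 in library 2, lay just under the 1.5-fold line (log2 0.58, 0.46 to 0.70; exact binomial test, adjusted p = 1.57e-21). On the ratio of TPM none of these 3 genes reached 1.5-fold, with log2 ratios of 0.48 for Eci2, 0.46 for Sucla2 and 0.55 for Etfdh. Dld moved the other way, with 1802 counts in library 1 and 2125 in library 2 (log2 -0.51, -0.60 to -0.42; exact binomial test, adjusted p = 4.86e-27).

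Smaller differences beyond counting error ran in both directions. Higher in library 1 were Acadl (log2 0.35), Echs1 (0.32), Acadvl (0.31), Slc25a20 (0.19), Etfb (0.19), Acly (0.18), Suclg2 (0.16), Mdh2 (0.14), Idh3b (0.13), Me2 (0.12), Cs (0.07) and Ogdh (0.06). By the ratio of TPM, Ogdh was instead lower in library 1 (log2 -0.056). Lower in library 1 were Cpt2 (log2 -0.39), Idh2 (-0.33), Fh1 (-0.20), Pdhb (-0.19), Acadm (-0.19), Hadhb (-0.16) and Mdh1 (-0.12). Both directions were found in 7 of the 10 steps. Among genes that kept call and sign under the other settings given below, Me2 was higher and Pdhb lower in library 1, as were Sucla2 and Dld, and Slc25a20 and Cpt2. Fh1, Mdh1, Acadm and Hadhb were no longer beyond counting error with TMM factors or DESeq2 size factors. The other 15 genes did not pass the test, with log2 ratios from -0.09 for Aco1 to 0.24 for Pcx. Acadvl shares sequence positions with Dvl2 (33.8 TPM) and Idh3b with Nop56 (248 TPM), a gene more abundant than Idh3b itself, and the strand used in counting is not stated, so both values are uncertain.

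The small gene table, a separate whole-number count with an older annotation (GENCODE M4), gave the same sign for 30 of the 38 genes and for 21 of the 23 called in the large table. Of those 23, 16 were also called there with the same sign by the exact binomial test, and 13 kept call and sign under the small table, TMM factors and DESeq2 size factors alike, 9 higher in library 1 and 4 higher in library 2. Among detected genes called in the large table and tested in both, 62.1% kept call and sign in the small table and 57.9% under all of these settings. In the small table alone, 16 of the 38 genes were called (9 higher in library 1 and 7 higher in library 2), beside 25.1% of detected genes higher in library 1 and 23.5% higher in library 2. Those 9 were Eci2, Sucla2, Etfdh, Acadl, Echs1, Acadvl, Slc25a20, Acly and Me2, and the 4 were Dld, Cpt2, Idh2 and Pdhb. The log2 ratio in the small table was 0.71 for Eci2, 0.60 for Etfdh, 0.39 for Sucla2 and -0.38 for Dld. Mdh2 and Idh3b changed sign there, at -0.10 and -0.01. Hadhb held only 182 counts in library 1 and 162 in library 2 of the small table, against 4036 in library 1 and 3747 in library 2 of the large one. The small table thus held 0.045 of the large-table counts in library 1 and 0.043 in library 2, where the medians over detected genes were 0.460 in library 1 and 0.472 in library 2.

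**Figure D3:**
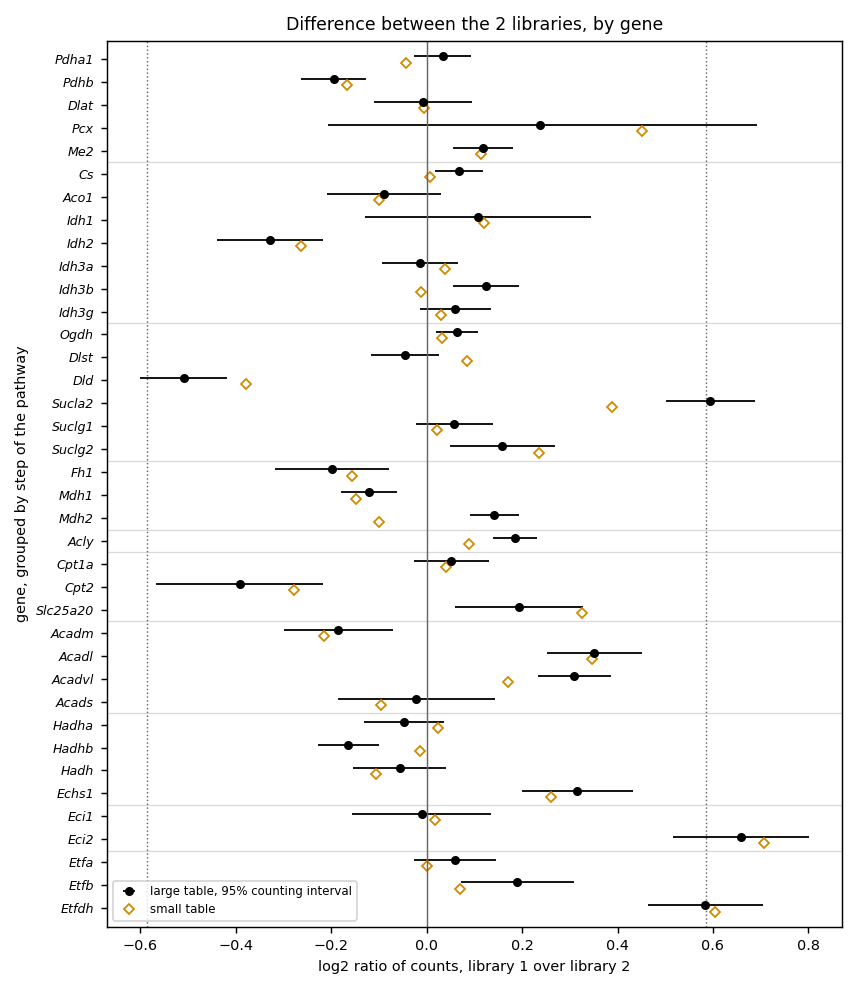
Log2 ratio of counts, library 1 over library 2, for each gene in the large table (filled points with 95% counting intervals) and in the small table (open diamonds). Dotted lines mark 1.5-fold; Eci2, Sucla2 and Etfdh lie near or beyond the line on the right in the large table, and Dld lies farthest left.

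Start regions are shown for the paired trifunctional protein genes, which lie side by side, and for the 3 genes with the largest ratios above 1 between libraries. The 250 bases before the RefSeq start sites (GRCm38.p6) of Hadhb, Eci2, Sucla2 and Etfdh are given 5′ to 3′ on the strand of each gene. Hadha and Hadhb lie head to head, with start sites 273 bases apart, so the Hadhb stretch covers nearly all of the interval they share. It is chr5:30155003-30155252 on the plus strand. The others are chr13:34994145-34994394 on the minus strand for Eci2, chr14:73552536-73552785 on the plus strand for Sucla2 and chr3:79628768-79629017 on the minus strand for Etfdh. Capitals mark the matches found to the motifs listed after the sequences.
Hadhb: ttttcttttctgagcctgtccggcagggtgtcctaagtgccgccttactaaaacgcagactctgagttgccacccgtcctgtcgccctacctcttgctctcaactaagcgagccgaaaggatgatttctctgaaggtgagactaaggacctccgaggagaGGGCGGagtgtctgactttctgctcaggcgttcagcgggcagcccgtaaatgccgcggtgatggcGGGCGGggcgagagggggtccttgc
Eci2: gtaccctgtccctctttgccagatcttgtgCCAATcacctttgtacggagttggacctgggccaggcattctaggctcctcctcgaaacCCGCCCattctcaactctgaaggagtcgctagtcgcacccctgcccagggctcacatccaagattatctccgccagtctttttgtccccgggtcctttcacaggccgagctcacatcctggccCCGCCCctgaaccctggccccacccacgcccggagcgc
Sucla2: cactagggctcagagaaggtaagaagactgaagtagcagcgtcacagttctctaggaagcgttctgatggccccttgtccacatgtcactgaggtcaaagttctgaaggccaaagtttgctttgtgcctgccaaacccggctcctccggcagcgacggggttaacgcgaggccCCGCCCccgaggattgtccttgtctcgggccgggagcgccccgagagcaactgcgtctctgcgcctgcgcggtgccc
Etfdh: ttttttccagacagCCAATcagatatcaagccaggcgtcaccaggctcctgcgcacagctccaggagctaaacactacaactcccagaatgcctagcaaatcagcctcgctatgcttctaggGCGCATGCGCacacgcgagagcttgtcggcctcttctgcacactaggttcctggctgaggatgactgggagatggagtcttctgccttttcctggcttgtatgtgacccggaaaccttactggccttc

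RefSeq promoters were matched for 36 of the 38 genes. They were searched on both strands for 6 motifs: the GC box GGGCGG, the CCAAT box CCAAT, the ETS core CCGGAAG, the nuclear respiratory factor 1 palindrome (the longer run of capitals in the Etfdh stretch), the nuclear receptor element AAGGTCA, and the extended element of estrogen-related receptors TCAAGGTCA, which contains the shorter element. Some genes have several start sites, and a gene is counted where any of its windows holds the motif. The GC box was found for 26 of the 36 genes (72.2%), against 35.4% of 27025 genes with windows of the same length. CCAAT was found for 17 genes (47.2%, against 37.5%) and the ETS core for 3 (8.33%, against 7.83%), namely Cpt2, Idh3g and Slc25a20. The nuclear respiratory factor 1 letters were found for 1 gene, Etfdh (2.78%, against 0.877%), and AAGGTCA for 1, Acadm (2.78%, against 4.70%). The extended element was found for 0 of the 36 genes, against 0.422% of the 27025. All 36 genes were detected, whereas the 27025 outnumber the 13718 detected genes and so include genes not detected. Neither level nor number of windows per gene was matched, so these shares do not separate the pathway from detected genes in general. Hadhb has 2 GC boxes, Eci2 has 2 GC boxes and a CCAAT, Sucla2 has 1 GC box, and Etfdh has a CCAAT besides its nuclear respiratory factor 1 letters. A match is a description of the sequence, not a measured binding site.

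The transcript table split the 38 genes over 236 annotated transcripts. The same transcript led in both libraries for 35 genes, and the median leading share over all 38 was 79.95% of the gene's TPM. The exceptions were Eci2, Sucla2 and Pcx. Eci2-203 held 40.6% of Eci2 in library 1 and 13.7% in library 2, while Eci2-211 held 9.52% in library 1 and 33.7% in library 2. Sucla2-203 held 55.2% in library 1 and 41.6% in library 2, and Sucla2-201 held 43.8% in library 1 and 52.5% in library 2. By expected counts, which are not divided by length, Sucla2-203 led in both, with 1715 counts in library 1 and 768 in library 2. For Pcx, the lowest gene, Pcx-204 held 21.5% in library 1 and 85.0% in library 2. Eci2 and Sucla2 also had the highest and second highest log2 ratio of counts among the 38 genes.

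Transcripts annotated as protein-coding held a median of 85.6% of TPM per gene, and at least 90% for 17 genes. They held under 50% on average for 3 genes. Hadha had 7.15% in library 1 and 12.02% in library 2, with Hadha-201, annotated as a processed transcript, leading at 55.0% in library 1 and 52.1% in library 2. Idh3a had 22.6% in library 1 and 43.0% in library 2, with the retained-intron transcript Idh3a-203 leading at 61.2% in library 1 and 54.4% in library 2. By expected counts the coding share of Idh3a was 30.4% in library 1 and 53.3% in library 2. Mdh2 had 38.5% in library 1 and 42.9% in library 2, with Mdh2-203, annotated for nonsense-mediated decay, leading at 54.5% in library 1 and 55.0% in library 2. The highest gene of the set thus had under 50% of its TPM in transcripts annotated as coding. Shares among overlapping transcripts are estimates by the authors' software, and Hadha-201 is 2552 bases long with its start 4 bases from the RefSeq start site.

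**Figure D4:**
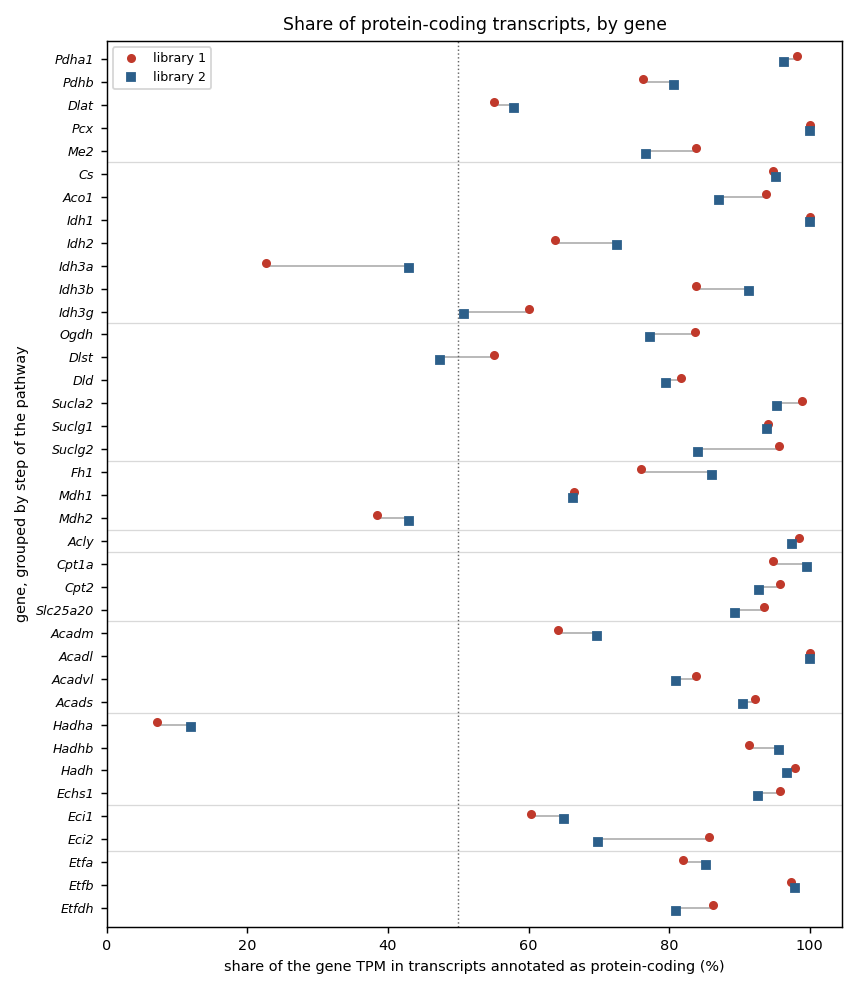
Share of each gene's TPM (%) in transcripts annotated as protein-coding, in library 1 (circles) and library 2 (squares). The dotted line marks 50%; Hadha, Idh3a and Mdh2 lie left of it in both libraries, and 17 genes average at least 90%.

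Other genes of the same pathways were read from 10 lists with 99 genes, of which 81 were detected. Of the 99, 7 had 0 counts in library 1 and 0 had 0 counts in library 2. Over all 55536 annotated genes, 29808 had 0 counts in library 1 and 21342 in library 2, so zeros were more frequent in library 1 generally. The exact binomial test placed 69 of the 98 tested beyond counting error (31 higher in library 1 and 38 higher in library 2). Beside them stood 70.2% of all genes tested and 64.9% of detected genes. A ratio of 1.5-fold or more was seen for 36 (11 higher in library 1 and 25 higher in library 2), or 36.7%. The share was 53.7% of all genes tested (14.5% higher in library 1 and 39.2% higher in library 2). Over detected genes it was 25.1% (11.2% higher in library 1 and 14% higher in library 2). The 36 include genes that were not detected. In the cycle itself, the succinate dehydrogenase subunits Sdha (250 TPM in library 1 and 252 TPM in library 2) and Sdhb (198 TPM in library 1 and 181 TPM in library 2) were high. Ogdhl, a relative of Ogdh, had 0 counts in library 1 and 23 in library 2, at least 9.25-fold lower in library 1 when 3 counts are set for the library at 0. The NADP malic enzymes Me1 (0.06 TPM in library 1 and 1.06 TPM in library 2) and Me3 (0.38 TPM in library 1 and 1.90 TPM in library 2) were low beside Me2.

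The pyruvate carrier subunits Mpc1 (123 TPM in library 1 and 122 TPM in library 2) and Mpc2 (97.1 TPM in library 1 and 91.8 TPM in library 2) were near the levels of Pdha1. Pdk4, a kinase that shuts pyruvate dehydrogenase down, had 0.14 TPM in library 1 and 0.77 TPM in library 2. Its 3 relatives, named after their values were seen, were higher in both libraries: Pdk1 had 89.0 TPM in library 1 and 97.5 TPM in library 2, Pdk2 had 16.4 TPM in library 1 and 16.6 TPM in library 2, and Pdk3 had 19.8 TPM in library 1 and 28.1 TPM in library 2. The phosphatase Pdp2 had 4.74 TPM in library 1 and 7.25 TPM in library 2. Of the lipoate genes, whose product is the cofactor of Dlat and Dlst, Lias had 33.0 TPM in library 1 and 34.0 TPM in library 2, and Lipt1 had 3.25 TPM in library 1 and 6.63 TPM in library 2. The oxoglutarate carrier Slc25a11 had 114 TPM in library 1 and 149 TPM in library 2, and the aspartate-glutamate carrier Slc25a12 had 65.0 TPM in library 1 and 84.3 TPM in library 2. The dicarboxylate carrier Slc25a10 had 8.16 TPM in library 1 and 18.0 TPM in library 2, 1.84-fold lower in library 1 by counts, while Slc25a21 had 3.10 TPM in library 1 and 0.70 TPM in library 2, 3.25-fold higher. Among genes that supply glutamine carbon, the transporter Slc1a5 was high, at 309 TPM in library 1 and 337 TPM in library 2. Gls2 had 2.11 TPM in library 1 and 0.50 TPM in library 2, and the alanine transaminases Gpt (3.65 TPM in library 1 and 14.3 TPM in library 2) and Gpt2 (1.35 TPM in library 1 and 2.35 TPM in library 2) were low.

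For fatty acid uptake and activation, the acyl-CoA synthetase Acsl5 led with 138 TPM in library 1 and 119 TPM in library 2. Acsbg1 had 20.4 TPM in library 1 and 46.8 TPM in library 2, 2.25-fold lower in library 1 by counts (log2 -1.17, 95% counting interval -1.29 to -1.06). Fabp4 and Slc27a2 had 0 counts in library 1 and 31 and 24 counts in library 2, and Cd36 had 0.65 TPM in library 1 and 2.07 TPM in library 2. Acsl6 had 123 counts in library 1 and 3 in library 2. Cpt1b, the muscle form of the enzyme encoded by Cpt1a, had 0.04 TPM in library 1 and 1.31 TPM in library 2, far under Cpt1a in both. The mitochondrial thiolase Acaa2 had 116 TPM in library 1 and 96.7 TPM in library 2, and Hsd17b10 had 79.6 TPM in library 1 and 53.9 TPM in library 2. Decr1, a reductase for unsaturated chains that acts beside Eci1 and Eci2, had 663 counts in library 1 and 219 in library 2, 2.50-fold higher in library 1. Crat, carnitine acetyltransferase, had 6.65 TPM in library 1 and 8.70 TPM in library 2, 1.66-fold lower in library 1 by counts.

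In peroxisomes, Scp2 (243 TPM in library 1 and 251 TPM in library 2) and Acaa1a (82.9 TPM in library 1 and 101 TPM in library 2) were the highest. The multifunctional enzyme Hsd17b4 was 1.56-fold higher in library 1 by counts (56.4 TPM in library 1, against 39.3 TPM in library 2), and Ehhadh was 2.05-fold lower by counts (3.10 TPM in library 1, against 6.46 TPM in library 2). Acaa1b and the transporter Abcd2 had 0 counts in library 1 and 20 and 6 counts in library 2. Of the regulators, the kinase subunits Prkag1 (102.5 TPM in library 1 and 127 TPM in library 2) and Prkab1 (90.8 TPM in library 1 and 90.6 TPM in library 2) were high. Ppara, a fatty acid receptor that drives these genes in liver, had 0 counts in library 1 and 14 in library 2, and the kinase subunit gene Prkaa2 had 0 counts in library 1 and 22 in library 2. Ppard had 5.24 TPM in library 1 and 1.87 TPM in library 2, and Pparg had 3.60 TPM in library 1 and 4.49 TPM in library 2. Of the ketone body genes, Oxct1, which activates acetoacetate for oxidation, had 70.3 TPM in library 1 and 74.5 TPM in library 2.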

How the data were processed

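The labels describe polyA RNA-seq libraries with fragments of 100 to 300 bases. Per the file headers, the large gene and transcript tables hold expected counts, TPM and FPKM made by the authors, and the transcript table the percent that each transcript takes of its gene. The deposited small gene table holds whole-number counts. Aligner and quantifier: not given in the sources used here. Expected counts were rounded for the exact binomial test (scipy 1.17.1), and 0.5 counts were added for ratios. Rows that name no gene (26345 of 81881) held 0.201% of the counts of library 1 and 0.235% of library 2 and were left out. A count of 0 allows up to 3 counts (CPM 0.113 for library 1, 0.136 for library 2). Such floors and all intervals cover counting error only. With 1 biological replicate no dispersion free of the comparison could be estimated, so the quasi-likelihood test was not used. Alternatives were TMM factors (edgeR 4.0.16), DESeq2 1.42.0 size factors, other count minimums, fold sizes and added counts, FPKM, TPM ratios, the small table and each library alone. Expected counts were not whole for 15 of the 38 genes, and 17 overlap another annotated gene. The test was checked on simulated counts whose only spread was counting error, so the check does not cover other differences between the libraries. The 38 genes and all lists were chosen with earlier results of these data known. Named from each list of related genes were the 2 highest by mean TPM, up to 2 under 1 TPM in either library, and up to 2 at least 1.5-fold apart with at least 100 counts. Some genes that this rule names are not reported here.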

Additional observations from a re-analysis of the deposited data

How the results depend on the processing

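No paired analysis was possible because both libraries belong to 1 group. All 38 genes were detected at 0.1 TPM, and 37 at 5 TPM or at an FPKM of 1. The median level of 69.3 TPM ranged from 71.7 to 73.5 TPM with 1 library left out, and was 42.9 as FPKM. By expected counts the median leading share was 85.5% and the median coding share 93.0%. DESeq2 size factors moved every log2 ratio by 0.11 and TMM factors by 0.10, so the median of the 38 genes became 0.17 and 0.16, beside 0.10 and 0.09 over detected genes. Under each, 19 of the 23 calls kept their sign and 4 were lost (Fh1, Mdh1, Acadm and Hadhb). The count of the 38 genes at least 1.5-fold apart was 0 by the ratio of TPM and 0 at 2-fold, and 3 with either set of factors. Over all genes, 13024 were at least 1.5-fold apart, against 24172 with no count minimum, 3322 with a minimum of 100, 5427 in the small table, 3384 among detected genes and 598 among genes with a mean of at least 20 TPM (the last 2 added after the data had been seen). Beyond counting error were 17039 genes, against 9066 with a minimum of 100 (fewer genes tested) and 7831 in the small table. The log2 ratio reversed for Idh3b (-0.011) and Mdh2 (-0.10) in the small table and for Ogdh (-0.056) by the ratio of TPM. The cause of these reversals was not tested. Low counts limit Pcx and Idh1.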
